A study of Homo sapiens with 9 samples.

Results

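Gene expression in NB4, a human line from an acute promyelocytic leukaemia, was compared with that in K562, a human line with erythroid features from the blast crisis of a chronic myeloid leukaemia. The comparison is of the 3 NB4 with the 3 K562 arrays, 6 of the 9 arrays of the series, and the 3 arrays of the monocytic line U937, with the same treatments, entered the model that gave the spread. Cells of each line were left untreated or received MS-275 or SAHA, each at 5 µM for 6 h, and the NB4 array of each treatment was paired with the K562 array of the same treatment. MS-275 (entinostat) is a benzamide and SAHA (vorinostat) a hydroxamic acid, and both inhibit histone deacetylases. Both lines grew in RPMI medium with fetal bovine serum, and the inhibitors were dissolved in DMSO, which the labels do not say the untreated cells received. The labels call every line an AML line. Each line and treatment had 1 array, so the spread behind each test is that of line differences over the 3 treatments, not that between cultures, and each lineage is represented by 1 line, so that lineage and the properties of the individual line cannot be told apart.

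The promyelocyte is the stage of neutrophil formation at which the azurophil granules are filled with myeloperoxidase and serine proteases, and in acute promyelocytic leukaemia cells stop there, most often with a fusion of PML and RARA. Erythroid cells instead build haemoglobin from globin chains and haem, and the transcription factors GATA1, TAL1 and KLF1 are required for these genes. K562 is known for making embryonic and fetal haemoglobin and for its BCR-ABL1 fusion kinase.

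RNA was measured on Illumina bead arrays, and values are quantile-normalized log2 intensities with no background subtraction. The 6 arrays detected 11826 to 12341 of 22177 probes (53.3 to 55.6%, detection p under 0.05), and their median raw intensity was 112 to 139. Across probes, r was 0.946 to 0.971 between arrays of 1 line and 0.779 to 0.852 between an NB4 and a K562 array. The 9 neutrophil precursor markers averaged 10.4 to 10.9 on the log2 scale over the NB4 arrays and 6.91 to 7.11 over the K562 arrays. The 10 erythroid markers averaged 7.35 to 7.46 in NB4 and 11.8 to 12.5 in K562. The labels therefore matched the markers of both lines, although ELANE (neutrophil elastase) was at 6.70, 7.04 and 6.97 and CSF3R (the G-CSF receptor) at 6.89, 7.11 and 6.76 in untreated, MS-275 and SAHA-treated NB4, each detected on 2 of 3 arrays.

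Of 10489 genes tested, 5543 (52.8%) differed between the lines at an adjusted p under 0.05 with limma (Benjamini-Hochberg). Of these 2839 (27.1%) were higher in NB4 and 2704 (25.8%) higher in K562. A difference was counted as held when it passed this test and was at least 2-fold in the same direction in all 3 pairs, and 1331 genes (12.7%) met this, 601 (5.73%) higher in NB4 and 730 (6.96%) higher in K562. The median standard error of a difference was 0.12 on the log2 scale and the median size 0.41. Just inside the 2-fold limit lay PIM1, whose smallest pair difference was 1.00053, and SOX18 with 1.00055, and just outside it lay DTYMK with 0.999122 and ADPGK with 0.998908.

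Untreated cells differed by at least 2-fold in 2093 genes, cells with MS-275 in 2438 and cells with SAHA in 1870. All 1331 genes past 2-fold in the same direction in the 3 pairs also passed the test. Of the genes past 2-fold in untreated cells, 382 were not past it with MS-275 and 659 not with SAHA, 279 of them with neither, while 201 genes were past it with both inhibitors and not without. Across genes, the untreated difference correlated with that under MS-275 at 0.932 and under SAHA at 0.906, and the 2 treated pairs at 0.912. The pairs come from separate arrays, but they share the cell lines and the probes. Only SMIM14, a small membrane protein gene, differed by more than 2-fold each way. It read 8.15 in untreated NB4 against 10.10 in untreated K562, and 11.85 against 10.53 with MS-275. With SAHA it was at 11.03 in NB4 and 10.50 in K562. The values of NB4 were thus the lowest without inhibitor and the highest with either inhibitor.

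**Figure D1:**
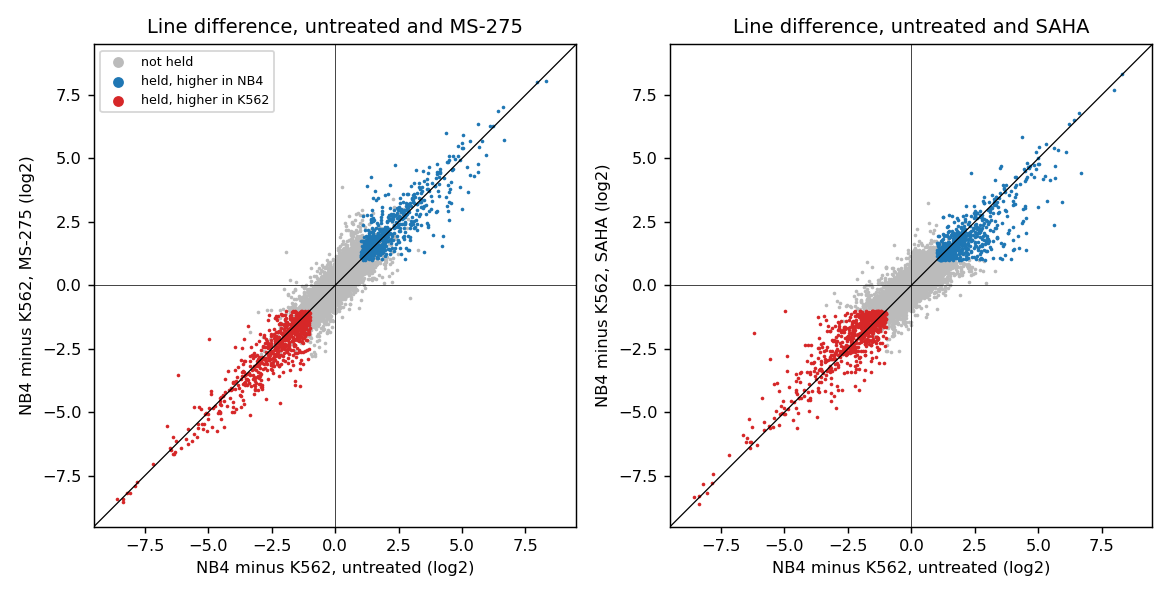
Difference between NB4 and K562 (log2) for each of 10489 genes in untreated cells (horizontal axis) and in cells with MS-275 or SAHA (vertical axes), with the line of equal differences. The 601 genes held higher in NB4 are blue, the 730 held higher in K562 red and the others grey, and the points follow the diagonal with r of 0.932 and 0.906.

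The 15 largest held differences toward NB4 included the granule genes MPO, CTSG and PRTN3. MPO, the myeloperoxidase that makes hypochlorous acid in granules, was at 14.80, 14.69 and 14.98 in untreated, MS-275 and SAHA-treated NB4 and at 6.51, 6.63 and 6.64 in K562, where no array detected it. The lines did not overlap, and NB4 averaged 14.82 ± 0.15 against 6.59 ± 0.07 in K562 (SD, n = 3 arrays each). The difference was 8.23 ± 0.10 on the log2 scale (SE, adjusted p 2.13e-08 with limma), at least 265-fold. Such lower bounds set the brighter line's mean against the detection limit of the arrays of the line in which no array detected the probe. MPO in NB4 with SAHA also lay at the highest value the normalization gives (14.98), so its difference may be capped. CTSG, the granule protease cathepsin G, was at 12.97, 13.37 and 13.02 in NB4 and at 6.55, 6.51 and 6.51 in K562, a difference of at least 81.4-fold. PRTN3, proteinase 3 of the same granules, read 11.65, 12.07 and 11.44 in NB4 and 6.61, 6.67 and 6.65 in K562, at least 30.8-fold. All 3 granule genes stayed high in NB4 with either inhibitor. As the RNA was bulk, fewer cells with a transcript and less of it per cell cannot be told apart.

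CYTL1, a small secreted cytokine-like protein, was at 14.41, 14.53 and 14.05 in NB4 and under the detection limit in K562, a difference of at least 188-fold. BASP1, a membrane-bound signalling protein, differed by at least 88.2-fold, HENMT1, an RNA methyltransferase, by at least 41.9-fold and RNASE2, the eosinophil-derived neurotoxin, by at least 46.4-fold. IGFBP2, which binds insulin-like growth factors, differed by at least 40.9-fold and RETN, the secreted protein resistin, by at least 30.1-fold. ITGB2, the beta chain of the leukocyte integrins, was detected on all arrays, at 12.76, 13.06 and 12.58 in NB4 and 6.97, 7.38 and 7.25 in K562. IRX3, a homeobox factor, was at 13.11 in untreated NB4, 12.05 with MS-275 and 10.88 with SAHA, and CCNA1, a cyclin found in germ cells and leukaemias, was at 10.62, 12.61 and 12.26. Both therefore varied more with the inhibitors in NB4 than the granule genes, yet neither was detected in K562. For GPX1, glutathione peroxidase 1, the named probe differed by 6.29 and a second probe by 0.54. RASSF2, which binds RAS, gave 5.11 with the named probe and 0.10 with another, so the size of both differences depends on the probe. CCL5, a chemokine, was at 11.80, 12.25 and 11.88 in NB4 and 6.79, 6.64 and 6.86 in K562 and completes the 15 genes.

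The 15 largest held differences toward K562 included 6 globin genes and 4 antigens of testis and tumours (GAGE12J, PAGE5, VCX and PRAME). HBG1, a gamma-globin of fetal haemoglobin, was at 14.92, 14.98 and 14.98 in untreated, MS-275 and SAHA-treated K562 and at 6.56, 6.44 and 6.36 in NB4, which did not detect it, a difference of at least 293-fold (adjusted p 4.36e-08 with limma). HBG2, its near-identical neighbour, differed by at least 289-fold, and their probes may not separate the genes. HBE1, the embryonic epsilon-globin, was at 14.76, 14.86 and 14.68 in K562 and differed by at least 256-fold. HBZ, the embryonic zeta-globin, was at 14.67, 14.76 and 14.31 and differed by at least 225-fold. The K562 values of HBG1 and HBG2 held the top ranks of their arrays, at or next to the highest value the normalization gives (14.98), so their differences may be capped.

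GAGE12J, of a multicopy family of cancer-testis antigens, was at 14.74, 14.79 and 14.73 in K562 and at 6.68, 6.62 and 6.55 in NB4, at least 254-fold apart. PAGE5 and VCX, further X-linked germ cell genes, differed by at least 64.8-fold and 68.9-fold by their named probes, while the other 2 VCX probes gave log2 differences of -3.28 and -3.14. PRAME, an antigen of testis and tumours, was at 13.72, 13.65 and 13.16 in K562 against 7.08, 8.13 and 7.25 in NB4, while a second probe of it differed by 1.21 toward K562 (log2 difference -1.21). NMU, the neuropeptide neuromedin U, differed by at least 160-fold, ALDH1A2, which makes retinoic acid, by at least 75.4-fold and CMBL, a hydrolase, by at least 57.1-fold. H1-2, a linker histone, was at 14.42, 14.51 and 14.49 in K562 and 7.25, 7.47 and 7.79 in NB4. HBA1 and HBQ1, of the alpha-globin cluster, and RHAG, the Rh-associated glycoprotein of the red cell membrane, complete the 15 genes. None of the 15 overlapped between the lines, which follows from their choice as the largest held differences.

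**Figure D2:**
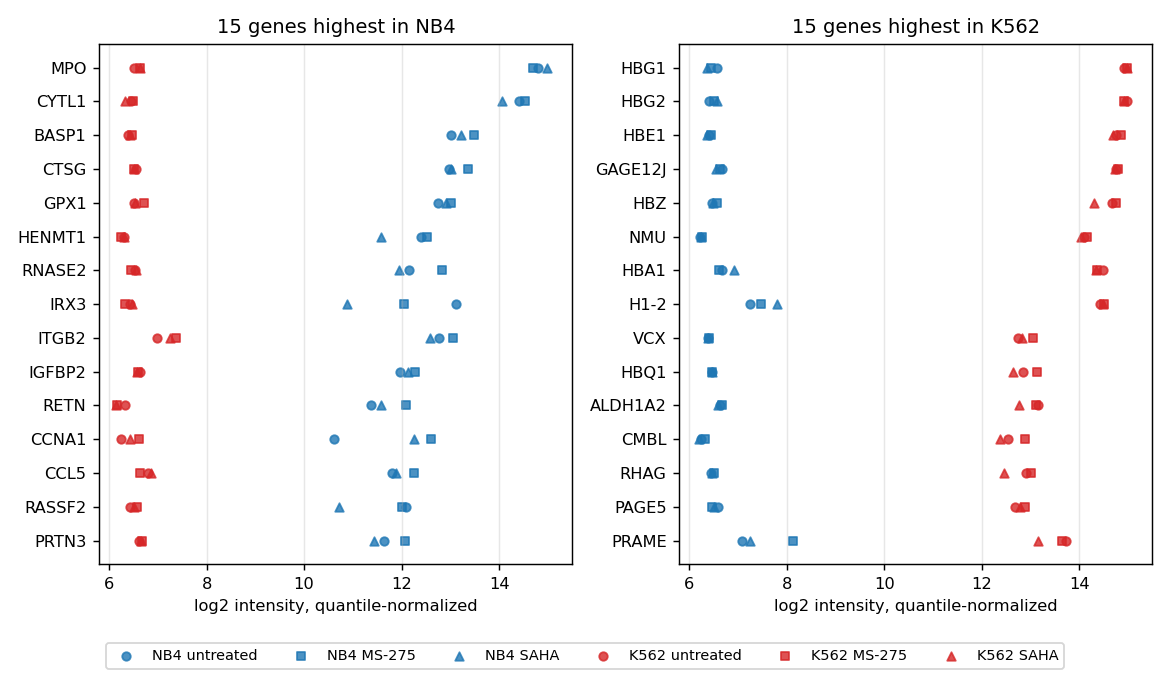
Quantile-normalized log2 intensity of the 15 genes with the largest held difference toward NB4 (left) and the 15 toward K562 (right), 1 symbol per array, NB4 in blue and K562 in red. MPO reaches 14.98 in NB4 and HBG1 14.98 in K562, while in the other line both lie between 6.36 and 6.64, and SAHA gives IRX3 its lowest NB4 value of 10.88.

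The sequence just upstream of the genes was read from RefSeq's promoter table (GRCh38.p14), which matched 8679 of the 10489 genes tested. In the 250 bases before the most upstream start, the letters AGATAA or TGATAA on either strand, which GATA factors bind, stood in 7.63% of all matched genes, 9.32% of those held higher in NB4 and 11.3% of those held higher in K562. The letters GAGGAA on either strand, which lie in many sites of the myeloid factor PU.1, stood in 23.3% of all, 31.1% of NB4-high and 24% of K562-high genes. CCAAT was present in 35.9%, 31.9% and 35.8%, and TTGCNNAA, part of many C/EBP sites, in 6.45%, 7.45% and 6.86%. These shares describe letters in a window, and a promoter counted once for a motif however many times it held it. Of the 15 genes highest in NB4, 11 had a promoter here, and GAGGAA stood in 5 of them (CYTL1, BASP1, CTSG, RETN and PRTN3). The GATA letters stood in 1 of the same 11 (RASSF2). Of the 15 highest in K562, 8 had a promoter here, with the GATA letters in 1 (RHAG) and GAGGAA in 2 (VCX and PRAME).

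Shown are 3 promoters of K562-high erythroid genes with the GATA letters in capitals on whichever strand they stand, then 3 of NB4-high granule and secreted protein genes with the GAGGAA letters in capitals, all picked because they hold the letters. Each runs 5′ to 3′ on the gene's own strand and ends at the base before the start: RHAG on the minus strand of chr6:49636840-49637089, KEL on the minus strand of chr7:142962364-142962613, KLF1 on the minus strand of chr19:12887202-12887451, CTSG on the minus strand of chr14:24576251-24576500, PRTN3 on the plus strand of chr19:840749-840998 and RETN on the plus strand of chr19:7668799-7669048.
RHAG: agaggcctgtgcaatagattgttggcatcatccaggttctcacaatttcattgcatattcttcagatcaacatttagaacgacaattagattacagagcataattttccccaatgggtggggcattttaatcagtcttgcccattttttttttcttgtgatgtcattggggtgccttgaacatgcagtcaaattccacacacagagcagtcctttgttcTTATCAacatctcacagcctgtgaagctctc
KEL: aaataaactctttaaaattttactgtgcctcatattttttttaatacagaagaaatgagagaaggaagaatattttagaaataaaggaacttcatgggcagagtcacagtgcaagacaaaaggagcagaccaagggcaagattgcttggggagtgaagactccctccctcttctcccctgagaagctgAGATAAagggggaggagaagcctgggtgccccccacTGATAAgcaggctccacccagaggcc
KLF1: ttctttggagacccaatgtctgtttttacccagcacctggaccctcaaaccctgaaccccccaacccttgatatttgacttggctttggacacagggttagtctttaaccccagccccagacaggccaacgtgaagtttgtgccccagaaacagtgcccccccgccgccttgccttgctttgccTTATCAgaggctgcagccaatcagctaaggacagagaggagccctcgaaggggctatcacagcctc
CTSG: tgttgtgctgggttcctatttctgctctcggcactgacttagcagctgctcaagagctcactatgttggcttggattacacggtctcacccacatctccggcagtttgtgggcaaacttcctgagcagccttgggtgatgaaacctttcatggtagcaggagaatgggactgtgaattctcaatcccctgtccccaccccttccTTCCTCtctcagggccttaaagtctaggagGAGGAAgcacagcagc
PRTN3: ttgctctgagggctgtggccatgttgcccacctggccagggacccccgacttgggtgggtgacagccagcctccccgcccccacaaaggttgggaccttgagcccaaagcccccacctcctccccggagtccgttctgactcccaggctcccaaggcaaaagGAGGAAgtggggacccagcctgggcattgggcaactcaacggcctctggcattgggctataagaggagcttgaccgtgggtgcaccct
RETN: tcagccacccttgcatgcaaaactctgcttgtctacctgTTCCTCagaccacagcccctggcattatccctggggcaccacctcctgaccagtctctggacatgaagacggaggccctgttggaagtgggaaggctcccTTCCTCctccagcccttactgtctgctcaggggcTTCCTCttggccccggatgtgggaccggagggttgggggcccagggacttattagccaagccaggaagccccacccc
KEL, the Kell blood group protease, has the letters at 2 places and RHAG and KLF1 at 1 each, while GAGGAA stands at 2 places before CTSG, 1 before PRTN3 and 3 before RETN.

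Granule proteins were higher in NB4 beyond the 3 genes already given. Of 15 granule genes tested, 13 were higher in NB4 and 2 in K562. Their median difference was 1.88 (log2), against 0.02 over all genes. Counts in this and later lists stand against 27.1% of all genes higher in NB4 and 25.8% higher in K562. Of 22 granule genes on the array, those detected on fewer than 3 of the 6 arrays, among them ELANE, BPI, LTF and CAMP, were not tested. MPO, CTSG, PRTN3, RNASE2, DEFA4 and EPX passed this limit through NB4 arrays alone, so it shaped the count and the median. AZU1, the antibacterial protein azurocidin, was at 9.87, 10.41 and 9.92 in NB4 and 6.62, 6.78 and 6.64 in K562. CST7, an inhibitor of granule cathepsins, was at 11.69, 11.98 and 11.59 against 7.22, 7.05 and 7.08. Granule genes of the eosinophil were in the set too, since PRG2, the major basic protein, was at 14.61, 14.67 and 14.60 against 11.13, 11.62 and 9.96, and EPX, eosinophil peroxidase, was near 8 in NB4 and undetected in K562 (difference 1.68). LYZ, lysozyme, was high in both lines and differed by 0.63. The 2 granule genes higher in K562 were SERPINB1, an inhibitor of neutrophil proteases (-1.39), and LCN2, the siderophore-binding lipocalin (-0.68), which no NB4 array detected.

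All 9 globin genes tested, with the globin chaperone AHSP counted among them, were higher in K562 and held in all 3 pairs. HBB, adult beta-globin, was at 7.55, 8.89 and 7.42 in K562 and at 6.38, 6.30 and 6.36 in NB4, a difference of -1.61 ± 0.30 (SE, adjusted p 0.00376 with limma). HBD, delta-globin, was at 10.94, 12.27 and 10.44 in K562 against 6.55, 6.70 and 6.66. HBQ1, theta-globin, was at 12.85, 13.12 and 12.65 in K562, and AHSP at 11.43, 12.14 and 11.06, neither being detected in NB4. HBA1, an adult alpha-globin, was at 14.48, 14.36 and 14.34 in K562 and detected on 1 NB4 array (6.93, with SAHA). HBB, HBD and AHSP were highest in K562 with MS-275, as were HBE1, HBZ and HBQ1, and 2 of the 9 genes were lower with it than in untreated K562.

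The median difference of 20 genes of haem synthesis and iron handling was -0.59. Of them 11 were higher in K562 and 2 in NB4, against 25.8% and 27.1% of all genes. The later steps of haem synthesis were among them: UROD, uroporphyrinogen decarboxylase, was at 14.21, 14.11 and 13.81 in K562 and 10.87, 11.15 and 11.39 in NB4. PPOX, protoporphyrinogen oxidase, differed by -3.32 and FECH, the ferrochelatase that inserts the iron, by -2.76, both held. ALAS2, the erythroid form of the first enzyme, was at 7.76, 8.20 and 7.59 in K562 and undetected in NB4, whereas ALAS1, the form found in all tissues, was higher in NB4 by 0.48. The biliverdin reductases BLVRA (-3.02) and BLVRB (-3.28) were held higher in K562, and HMOX1, which breaks haem down to biliverdin, was higher in NB4 (1.35) and undetected in K562. TFRC, the transferrin receptor, was at 13.57, 13.53 and 13.69 in NB4 and 13.92, 13.60 and 13.50 in K562, and its difference of -0.07 did not pass the test (adjusted p 0.795 with limma).

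Of 20 erythroid membrane and blood group genes, 14 were higher in K562 and 3 in NB4, and 8 were held higher in K562. RHAG was at 12.90, 13.004 and 12.47 in K562 and at 6.45, 6.50 and 6.47 in NB4, at least 65.1-fold apart. KEL was at 10.02, 10.84 and 9.74 in K562 and RHD, the D antigen of the Rh group, at 9.54, 10.09 and 9.40, with no detection of either in NB4; the RHD probe may also read its close relative RHCE. TMOD1, which caps the short actin filaments of the red cell membrane, differed by -4.55, and ERMAP, which carries the Scianna blood group, by -2.77 (a second probe -0.25). SLC4A1, the band 3 anion exchanger, was at 8.18, 8.28 and 7.06 in K562, and EPB42, protein 4.2, at 8.18, 8.80 and 7.27, and both passed the test without being held. Carbonic anhydrases went both ways: CA1 was higher in K562 (-2.96), and CA2 was at 12.11, 11.998 and 11.24 in NB4 against 6.63, 7.70 and 7.09 in K562. EPOR, the erythropoietin receptor, was at 7.07, 7.31 and 8.06 in NB4 and 8.60, 7.84 and 7.36 in K562, overlapping and not past the test (adjusted p 0.391 with limma).

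Of 19 erythroid and megakaryocytic regulators, 10 were higher in K562 and 3 in NB4, with 4 held higher in K562. GATA1 was at 10.88, 10.96 and 8.93 in K562 and at 6.68, 6.84 and 6.56 in NB4, a difference of -3.56 ± 0.39 (SE, adjusted p 0.000319 with limma). The lines did not overlap, and the K562 array with SAHA was the lowest of that line. KLF1 was also lowest in K562 with SAHA, at 9.84, 9.47 and 7.69 in K562 against 7.05, 6.88 and 6.99 in NB4, and so was TAL1, at 8.98, 8.49 and 7.13 against 6.72, 6.67 and 6.69. NFE2, a factor of globin and platelet genes, was at 13.17, 13.06 and 10.66 in K562 and 10.79, 10.78 and 8.07 in NB4, lower with SAHA in both lines. GFI1B, a repressor of erythroid and megakaryocytic cells, was at 9.57, 9.70 and 7.68 in K562 and undetected in NB4. The 3 genes higher in NB4 were BCL11A, which represses gamma-globin in adult erythroid cells (1.18), IKZF1 (0.77) and FLI1 (0.72). LMO2, CBFA2T3 and MYB, which are shared by several blood lineages, overlapped between the lines and did not pass the test, with differences of -0.97, -0.11 and 0.43.

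Megakaryocyte genes gave a mixed picture, with 6 of 14 higher in K562, 2 in NB4 and a median of -0.07. GP1BB, a chain of the platelet von Willebrand factor receptor, was at 14.26, 14.34 and 13.82 in K562 against 11.11, 11.16 and 10.56 in NB4, and TUBB1, the platelet tubulin, at 9.40, 9.17 and 7.12 with none detected in NB4. PLEK, pleckstrin, was instead at 11.77, 11.90 and 11.54 in NB4 against 6.84, 8.05 and 6.95. PF4 and GP9, which define platelets, were not detected on any of the 6 arrays. ITGA2B, another megakaryocyte marker, was detected on all 6, at 9.69, 10.32 and 10.01 in NB4 and 10.14, 10.94 and 10.30 in K562.

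Of 22 myeloid transcription factors, 14 were higher in NB4 and 3 in K562, with a median of 0.67 and 6 held higher in NB4. CEBPA, which is required for granulocyte formation, was at 11.52, 11.23 and 10.43 in NB4 and 6.51, 8.23 and 7.35 in K562, a difference of 3.69 ± 0.39 (SE, adjusted p 0.000265 with limma). Its range narrowed from both sides, since the untreated NB4 array was the highest and the untreated K562 array the lowest. CEBPE, a factor of granule genes, was at 10.29, 9.62 and 8.27 in NB4 against 7.36, 7.82 and 6.93. GFI1, a repressor needed for neutrophils, was at 10.96, 9.55 and 8.28 against 6.71, 7.60 and 6.80. IRF8, a monocyte factor, moved the other way in NB4, at 8.91, 11.41 and 11.04, with no detection in K562. RUNX3 differed by 4.68 and RUNX1 by 0.66, but a second probe of each gave 0.01 (RUNX3) and 0.02 (RUNX1). SPI1, which encodes PU.1, differed by 0.78 and overlapped, at 10.20, 9.96 and 8.83 in NB4 and 8.92, 9.70 and 8.04 in K562. CEBPB (-1.70) and ID1, an inhibitor of basic helix-loop-helix factors (-2.91), were held higher in K562. The partners of the NB4 fusion both differed by under 2-fold in the mean, PML by 0.70 (other probes 0.005 to 0.03) and RARA by 0.45; whether the probes read the fusion transcript was not tested.

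**Figure D3:**
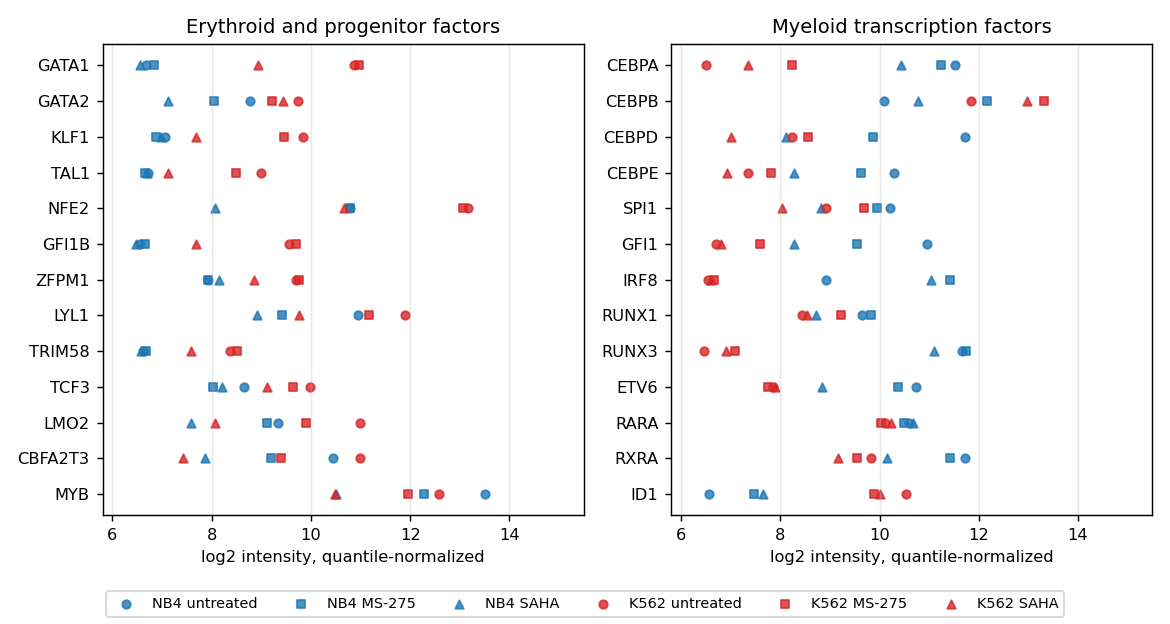
Quantile-normalized log2 intensity of erythroid and progenitor factors (left) and myeloid transcription factors (right) on the 6 arrays, NB4 in blue and K562 in red, with the treatment given by the symbol. GATA1 in K562 lies at 10.88 and 10.96 without SAHA and at 8.93 with it, above all NB4 arrays, and CEBPA in NB4 lies between 10.43 and 11.52, above all K562 arrays.

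Cell surface genes also divided the lines. Of 26 myeloid surface and cytokine receptor genes, 13 were higher in NB4 and 6 in K562. ANPEP, the aminopeptidase CD13 of myeloid cells, was at 11.31, 11.81 and 10.91 in NB4 against 6.59, 6.84 and 6.52, and CD44, the hyaluronan receptor, at 12.53, 12.69 and 12.24 against 7.97, 8.61 and 7.99. SIRPA, an inhibitory receptor, was at 10.95, 11.63 and 9.04 in NB4 and undetected in K562. FCER1G, a signalling chain of Fc receptors, differed by 2.77 and CD38 by 2.58. CD68, a lysosomal protein often used to mark macrophages, was higher in K562, at 10.57, 11.21 and 10.53 against 8.88, 9.54 and 9.09. KIT, the stem cell factor receptor, was at 7.30, 8.01 and 7.44 in K562 and undetected in NB4.

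Of 9 chemoattractant and chemokine receptors, 5 were higher in NB4 and 0 in K562. CXCR4, the receptor that keeps blood cells in the marrow, was at 11.93, 13.28 and 12.19 in NB4 against 6.93, 7.88 and 7.41, a difference of 5.06 ± 0.15 (SE, adjusted p 7.21e-07 with limma). P2RY8 was at 10.85, 9.94 and 8.94 in NB4 and undetected in K562. Among 17 integrin and adhesion genes, 7 were higher in NB4 and 3 in K562, against 27.1% and 25.8% of all genes. Beside ITGB2, the alpha chain ITGA4 differed by 2.15 and ICAM3 by 1.91 toward NB4. ITGB1 (-0.85), ITGB5 (-1.02) and ICAM2 (-1.46) were higher in K562. ITGAM, which pairs with ITGB2 on neutrophils, was at 7.16, 9.18 and 7.56 in NB4 against 6.64, 7.004 and 6.77.

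The list with the largest number of NB4-high genes, and of genes tested, was that of leukocyte signalling and actin. In it 28 of 34 genes were higher in NB4, 3 in K562 and 19 were held higher in NB4, with a median of 1.37. By share, granule proteins (13 of 15) ranked above it. CORO1A, an actin regulator of leukocytes, was at 12.59, 12.59 and 12.32 in NB4 and 7.26, 8.23 and 8.995 in K562. INPP5D, the inositol phosphatase SHIP1, differed by 3.27 and MYO1G, a leukocyte myosin, by 3.11. The tyrosine phosphatase PTPN6 (2.55, a second probe -0.09), the kinase SYK (1.25) and the phospholipase PLCG2 (2.44) were higher in NB4 as well. The genes higher in K562 included the protein kinase C gene PRKCB (-1.17) and the kinase LYN (-0.59).

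Effector genes of neutrophils other than granule proteins were a mixture. Of 6 NADPH oxidase genes, CYBB (2.02) and NCF4 (2.15, a second probe 0.18) were higher in NB4 and none in K562, and CYBA, RAC1, RAC2 and NCF1 did not pass the test. Of 6 lipid mediator enzymes, 4 were higher in NB4 and 2 in K562, with a median of 1.28 that turned to -0.24 among those detected on all 6 arrays. Those higher in NB4 included ALOX5AP, the activator of 5-lipoxygenase, at 8.001, 10.11 and 9.16, and LTC4S (1.68), neither of which K562 arrays detected. ALOX5, the 5-lipoxygenase itself, was higher in K562, at 8.83, 10.23 and 9.74 against 7.43, 9.15 and 8.16, and so was PTGS1 (-2.03, a second probe -0.33). Of 12 S100, annexin and galectin genes, 7 were higher in K562 and 3 in NB4. S100A4 (3.42) and S100A10 (2.78) were higher in NB4, and S100A13 (-3.84, but -0.53 to 0.07 with its 3 other probes), ANXA1 (-2.50) and S100P (-1.56) in K562.

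Antigen presentation genes were higher in NB4 in 6 of 12 cases and in K562 in 1. HLA-B, a class I heavy chain, was at 9.54, 10.14 and 9.82 in NB4 and 6.48, 6.58 and 6.80 in K562, although probes of polymorphic HLA genes can depend on the allele. HLA-E, also a class I heavy chain, was at 10.20, 11.40 and 11.61 against 8.92, 10.12 and 10.39, and B2M, their common light chain, differed by 0.70. PSMB8, an immunoproteasome subunit, differed by 2.65. Of 20 interferon response genes, 7 were higher in each line, not far from the 27.1% (NB4) and 25.8% (K562) of all genes. Their median of 0.09 turned to -0.28 among those detected on all 6 arrays. IFITM3, which blocks virus entry, was at 11.29, 11.87 and 11.23 in K562 and undetected in NB4, at least 26.0-fold apart, and IFITM1 (-2.20), IFI30 (-2.86) and IFI35 (-2.66) were higher in K562. IFIT1 (1.42), IFIT2 (1.15) and SP110 (0.70, other probes 0.19 to 0.24) were higher in NB4.

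Cancer-testis and embryonic antigen genes were higher in K562 in 18 of 20 cases, with 16 held, 0 higher in NB4 and a median of -2.47. Beside those already given, MAGEB2 was at 11.88, 12.21 and 11.93 in K562, PAGE1 at 10.85, 11.34 and 11.04 and MAGEC2 at 10.26, 10.33 and 9.67, with no array of NB4 detecting any of them. MAGEA1 (-2.76), CTAG2 (-2.65) and SSX1 (-2.69) were held as well. Many of these genes are X-linked and in families of near-identical copies, so single family members are uncertain. The 2 that did not pass were the RNA-binding proteins IGF2BP1 (0.05) and IGF2BP3 (-0.19).

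Of 16 HOX and partner genes, 11 were higher in K562 and 1 in NB4, and 6 of the 7 held were of the HOXB cluster on chromosome 17, whose members set position along the body axis and are used by blood progenitors. HOXB9 was at 11.30, 11.34 and 10.26 in K562 and 6.75, 6.92 and 6.77 in NB4, HOXB8 at 10.21, 10.41 and 9.06 and HOXB7 at 9.84, 10.31 and 9.37, the latter 2 undetected in NB4. HOXB2 was at 10.12, 9.46 and 7.71 in K562, lowest with SAHA. HOXB3 and HOXB6 differed by -0.34 and -0.46 and were not held. PBX3, a HOX partner, was the gene higher in NB4 (0.83).

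Of 28 genes of JAK-STAT5 and BCR-ABL1 signalling, 12 were higher in K562 and 10 in NB4, against 25.8% and 27.1% of all genes. ABL1, whose kinase part is in the K562 fusion, was at 11.62, 11.68 and 11.56 in K562 and 9.80, 9.60 and 9.36 in NB4, but a second probe differed by -0.05. CRKL, an adaptor that BCR-ABL1 phosphorylates, was at 13.28, 12.85 and 12.96 against 11.77, 11.41 and 11.54. Other members of this list went both ways. SOCS2 (-2.26), PIM1 (-2.69), PIM2 (-1.45) and CISH (-0.80) were higher in K562, while the cyclins CCND2 (2.38) and CCND1 (1.41) and the ERK phosphatase DUSP6 (2.41) were higher in NB4. By their named probes, members of the BCL2 family went both ways: BCL2 was at 9.71, 8.93 and 8.22 in NB4 against 7.25, 7.20 and 7.09, and BCL2L1, which encodes BCL-XL, was at 11.59, 11.45 and 9.85 in K562 against 9.88, 9.58 and 8.66. Both were lowest with SAHA in the line where they were high, but second probes differed by only -0.02 for BCL2 and -0.46 for BCL2L1. Of 26 cell death genes, 9 were higher in NB4, near the 27.1% of all genes, and 3 in K562, with CASP4, an inflammatory caspase, at least 8.98-fold higher in NB4 by the named probe but by 0.71 (log2) with a second probe, and PYCARD, the inflammasome adaptor, higher by 1.58.

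Among 19 glycolysis genes, 9 were higher in K562 and 4 in NB4, and the isoenzymes differed in direction. HK2, an inducible hexokinase, was higher in NB4 (1.75), while HK1 was at 13.60, 13.79 and 13.59 in K562 and at 7.40, 10.26 and 11.73 in NB4, with other HK1 probes differing by between -3.89 and -0.29. PFKM (-2.27), ALDOC (-2.22), ENO3 (-2.12) and the glucose transporter SLC2A1 (-2.16) were higher in K562 and LDHB (1.36) in NB4. Of 24 glutathione and antioxidant genes, 11 were higher in K562 and 7 in NB4, against 25.8% and 27.1% of all genes. GSTT1, a glutathione transferase, was at least 9.89-fold higher in K562 and undetected in NB4. Of 28 G1/S and DNA replication genes, 10 were higher in NB4 and 6 in K562, not far from the 27.1% and 25.8% of all genes. Their differences were small, from -1.37 (TK1) to 1.42 (RFC3).

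Markers of cells that neither line represents were also uneven. Of 10 epithelial and stromal genes tested, 5 were higher in K562 and 1 in NB4. The keratins KRT8, KRT18 (-3.04, other probes -1.46 and -0.74) and KRT19, which mark epithelium, were held higher in K562. KRT19 was at 11.71, 12.36 and 11.76 against 6.27, 6.37 and 6.20 in NB4. ACTA2 was held higher in NB4 (1.62). All 3 NB4 arrays detected KRT18 and also EPCAM, which was at 8.97, 9.32 and 8.30 against 10.15, 9.79 and 9.58 in K562. Over the 6 epithelial and stromal markers, the mean was 8.12 to 8.49 in K562 and 6.94 to 7.07 in NB4, with COL1A2 undetected in both lines, and their part in the other differences was not tested. Of 7 lymphocyte genes, 4 were higher in NB4 (CD8A, CD4, CD79B and CD3G, at 7.10 to 8.63) and 0 in K562. Of 5 T and B cell markers, CD3D, CD3E and MS4A1 were not detected on any of the 6 arrays. CD79A was at 7.63, 8.02 and 7.59 in NB4 and undetected in K562. CD2 was detected on all 6 arrays, at 6.98, 8.01 and 6.84 in NB4 and 6.92, 7.45 and 6.89 in K562. CD14 and CD163, which define monocytes and macrophages, were at 6.40 to 6.81 in both lines, and CSF1R was at 8.63, 10.80 and 7.47 in NB4 and 6.37, 7.39 and 7.34 in K562. Of 10 reference genes often used for scaling, 6 were higher in NB4 and 0 in K562, including ACTB, at 14.25, 14.32 and 14.06 against 12.27, 12.54 and 12.51, PPIA (1.87) and SDHA (1.92).

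**Figure D4:**
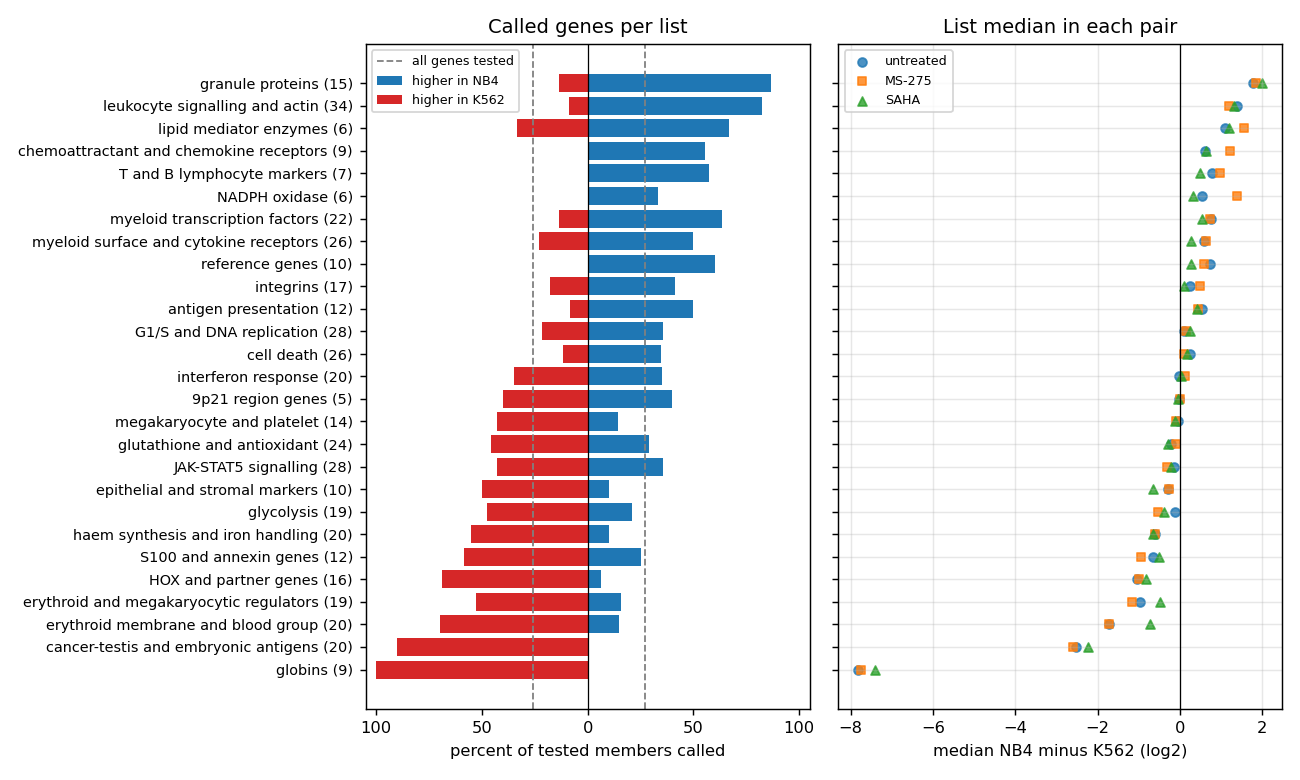
Left, percent of the tested genes of each list (number tested in brackets) that were called higher in NB4 (blue) or K562 (red), with dashed lines at 27.1% and 25.8%, the shares over all genes. Right, the list's median difference (log2) in untreated, MS-275 and SAHA pairs, from globins (median -7.66) to granule proteins (median 1.88).

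The size of the line differences varied with the inhibitors. With SAHA the difference was smaller than in untreated cells for 59.2% of called genes, and with MS-275 for 43.0%; both shares use the same untreated arrays. Among the erythroid membrane genes called, the difference was smaller with SAHA in 16 of 17 and with MS-275 in 5, and among the erythroid and megakaryocytic regulators in 11 of 13 and 5. The 10 regulators higher in K562 were all lower in K562 with SAHA than without, 6 of them by over 2-fold, with a median of -1.87 (log2), while in NB4 9 of the 10 were lower, with a median of -0.10. GFI1B, TAL1 and TRIM58 were not detected on any NB4 array and GATA1 on only 1, so that a fall of these genes could hardly be seen there. With MS-275 the median in K562 was -0.23 and 0 of the 10 were over 2-fold lower. The 14 membrane genes higher in K562 were all lower in K562 with SAHA as well, by a median of -0.45, and 2 of them were lower with MS-275. Of the 9 globin genes, 8 were lower in K562 with SAHA, by a median of -0.14 and 0 of them by over 2-fold, although HBG1 and HBG2 lay at the array's ceiling and could show little change. Over all genes these medians were -0.01 with either inhibitor in K562.

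A test of whether the difference with inhibitor departed from that without called 0 of 10489 genes (0%, limma, adjusted p under 0.05), with 165 genes at an unadjusted p under 0.05. In simulated data of this design it found 0 of 100 genes whose difference moved by 1 and 0 of 100 whose difference moved by 2 (log2), so the count of 0 carries no information on the size of such changes. The values above are therefore descriptions of single arrays.

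Held differences were uneven over the chromosomes. On chromosome 13, 16% of 175 genes were held higher in NB4 and 1.71% in K562, with a median difference of 0.54, against 5.73% and 6.96% over all genes. Chromosome X had 4.05% held in NB4 and 15.4% in K562, chromosome 22 had 4.58% and 12.6% and chromosome 6 had 4.75% and 10.0%. On chromosome 10 the shares were 10.4% and 7.38%. The median of chromosome 13 was between 0.46 and 0.60 in each of the 3 pairs.

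In windows of 15 neighbouring tested genes, the median difference of 10157 overlapping windows lay between -0.91 and 0.87 from the 1st to the 99th percentile. The lowest median, -1.86, belonged to the histone cluster from H1-2 to H3C7 on chromosome 6, where 13 of 15 genes were higher in K562 and 0 in NB4. Next was the stretch from LZTR1 to PRAME on chromosome 22, at -1.83 with 14 of 15 higher in K562, which was -2.07, -1.91 and -1.63 in untreated, MS-275 and SAHA pairs. The stretch from SLC25A1 to TANGO2, also on chromosome 22, had a median of -1.15 with 12 of 15 higher in K562. The beta-globin cluster with its TRIM neighbours on chromosome 11 (-1.60) and a stretch of TCEAL and ARMCX genes on chromosome X (-1.24) completed the K562 end. At the NB4 end lay the window from EIF3G to CDKN2D on chromosome 19 (1.31, 12 of 15 higher in NB4), which holds ICAM1, ICAM3 and TYK2. It was followed by RECQL to TM7SF3 on chromosome 12 (1.26), SNCG to KIF20B on chromosome 10 (1.15), HEBP1 to AEBP2 on chromosome 12 (1.10) and FLT3 to RFC3 on chromosome 13 (1.09), in which all 15 genes were higher in NB4 in the mean. Of 5 genes tested from the 9p21 region, FOCAD was at 9.99, 10.50 and 10.31 in NB4 and KLHL9 at 10.37, 10.27 and 10.14, with neither detected in K562, while MLLT3 (-0.03), HACD4 (-0.37) and PLIN2 (-0.87) were detected in both lines.

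**Figure D5:**
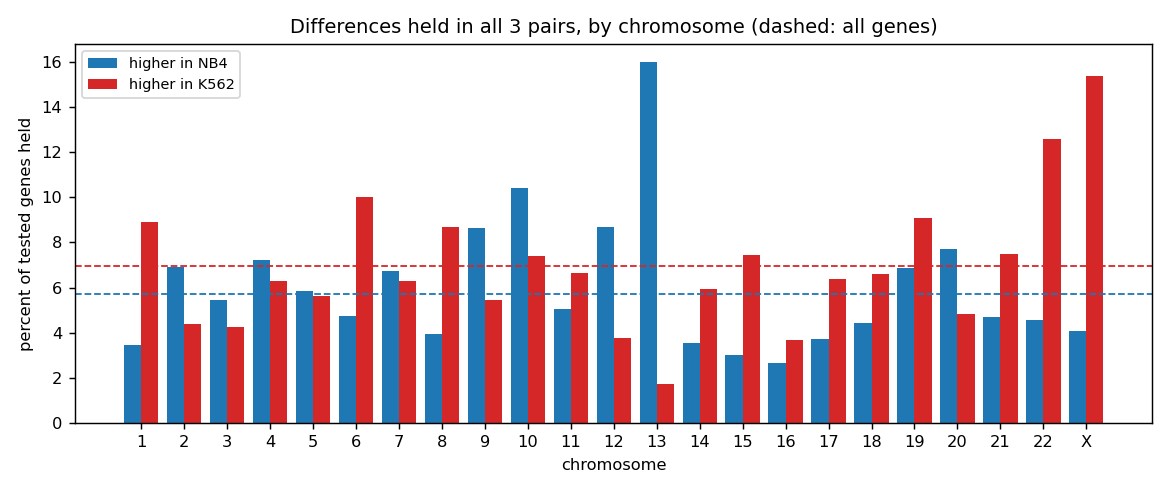
Percent of the genes tested on each chromosome whose difference was held in all 3 pairs, higher in NB4 (blue) or in K562 (red), with dashed lines at the shares over all genes, 5.73% and 6.96%. Chromosome 13 stands out toward NB4 (16%) and chromosomes X (15.4%) and 22 (12.6%) toward K562.

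The third line of the series, U937, entered the fit and its estimate of the spread, but the contrast and the 2-fold rule used only NB4 and K562 values. Of the 601 genes held higher in NB4, 543 (90.3%) were detected on all 3 U937 arrays, and of the 730 held higher in K562, 431 (59.0%) were, against 85.2% of all genes tested. The U937 mean was nearer to NB4 than to K562 for 61.4% of the NB4-high genes, 75.9% of the K562-high genes and 55.7% of all genes. Of the 15 genes highest in NB4, 14 were detected on all U937 arrays, the exception being MPO (mean 6.52), whereas CTSG averaged 14.63 and PRTN3 13.29 there. Of the 15 highest in K562, 4 were detected on all U937 arrays.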

How the data were processed

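RNA of 3 human leukaemia lines (NB4, K562 and U937), each untreated or with 1 of 2 inhibitors, was measured on 9 bead arrays, 1 per line and treatment. The authors deposited an intensity per probe, neither background-subtracted nor normalized as the values show, with a detection p-value per probe and array that the authors deposited beside it. They also deposited log2 values, for which the submitters' processing notes name lumi (version not given in the sources used here). Quantile normalization of the log2 intensities gave the same values (largest gap 4.998e-09), which were used as they are. No batch is recorded, and the number of arrays limits the precision.

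Probe names came from the platform's annotation: 19708 of 22177 probes had 1 symbol, 0 had several and 2469 had none here. The Entrez identifiers of 19688 were found in RefSeq, with 0 symbols changed. A probe was tested if detected (p under 0.05) on at least 3 of the 6 NB4 and K562 arrays, and the brightest stood for its gene (946 genes had several). Probes detected in 1 line alone passed this filter only through the line where they were high. limma 3.58.1 in R 4.3.3 fitted cell line and treatment to all 9 arrays with 4 residual degrees of freedom. p-values are two-sided and adjusted over all genes by Benjamini-Hochberg, and errors of differences are standard errors. A second fit tested whether the line difference changed with inhibitor (either against none). In simulated data of 10489 genes the first fit recovered 82 of 100 genes that differed by 1 and 97 of 100 that differed by 2 (log2), with 6 false calls. Figures were drawn with matplotlib in Python.

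Named genes were the 15 with the largest held mean difference each way, detected on all arrays of the higher line, up to 5 called genes each way per list, cell type markers, and genes that turned with inhibitor. Further genes were picked after their values were seen. Counts out of 201 named genes leave out these further genes, and markers that entered by no other rule. The comparison and the 27 lists were chosen with earlier results of these data known, and some genes stand in several lists.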

Additional observations from a re-analysis of the deposited data

Results flagged for a closer look

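The scan covered 201 named genes, which were the largest held differences, called list members and SMIM14. For 3 of them both inhibitor-treated arrays of NB4 lay on 1 side of the untreated array and both of K562 on the other. Each lay off by more than the median spread between pairs (0.20, log2). PIM1, a serine kinase and STAT5 target, was higher by 2.23 with MS-275 and 2.72 with SAHA in NB4 and differed by -0.64 and -1.26 in K562, which gave a mean change of the line difference of 3.43. ID1 was higher by 0.89 and 1.08 in NB4 and differed by -0.64 and -0.52 in K562, a change of 1.57. CEBPA went the opposite way, by -0.29 and -1.09 in NB4 and by 1.72 and 0.84 in K562, a change of -1.97. Each of these values rests on single arrays that share the untreated array of their line. None of the 3 passed the test of that change across all genes (limma, adjusted p 0.999964 for each). In simulated data that test found none of the changed genes, so a difference between the lines in their response was in effect not tested. EPOR, a marker outside the 201, met the same rule. It was at 7.07, 7.31 and 8.06 in untreated, MS-275 and SAHA-treated NB4 and at 8.60, 7.84 and 7.36 in K562. Further genes outside the 201 were not scanned.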

How the results depend on the processing

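No paired analysis was possible because each line and treatment had a single array, so that replicate numbers pair nothing; arrays were matched by treatment instead, as a term of the model. Without the treatment term 3422 genes differed, all of them also called with it, and with limma's treat against a 2-fold difference 905 did. Held differences numbered 1999 with background correction by nec, including all 1331 held without it, 723 among genes detected on all 6 arrays, 2632 at 1.5-fold and 413 at 4-fold per pair. Among genes detected on all 6 arrays 189 list genes were called, against 321. Leaving out 1 array, or all arrays of 1 treatment, gave 4083 to 5186 differing and 1421 to 1707 held genes. Held there asked for 2-fold only in the pairs that remained, a looser rule, so these held counts are not like for like with 1331. The other alternatives (equal medians, no detection filter, a filter over 9 arrays, 6 arrays alone, mean of probes and an intensity trend) kept both counts within 1.5 times. Equal medians took the share of called genes higher in NB4 from 51.2% to 58.7%. Of list medians, equal medians turned the megakaryocyte list from -0.07 to 0.0025 and the 9p21 genes from -0.03 to 0.12, and the restriction to genes detected on all 6 arrays turned the lipid mediator enzymes from 1.28 to -0.24 and the interferon response from 0.09 to -0.28. SMIM14, whose difference of -0.03 was not called, turned to 0.094 with equal medians and ranged from -0.72 without MS-275-treated NB4 to 0.93 without the untreated arrays, being 0.88 without untreated NB4 and 0.49 without untreated K562. The cause of these shifts was not tested, other than that fewer genes or arrays entered some of them.

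The rest of the 201 named genes kept their direction under each alternative in which they were tested, which for genes detected on all 6 arrays was 108 of 201. All but SMIM14 had been picked among genes called by the main test, so that choice largely fixed the outcome in advance. Genes outside the 201, such as TFRC and EPOR, were not checked in this way. Of the 201 named genes, 31 lost the call without the treatment term and 0 with background correction. The test of changes with inhibitor called 0 genes under every alternative, including one added after seeing the data that holds 3 treatment levels, with 68 to 438 genes at an unadjusted p under 0.05. Signal near background limits the lower end of the largest differences, and the array's ceiling the upper end of globins and of MPO.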
